A study of Homo sapiens with 6 samples.

Results

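The 10 genes described here encode enzymes that build nucleotides, namely PPAT, GART, PAICS, ATIC and IMPDH2 of purine synthesis, CAD and UMPS of pyrimidine synthesis, and TYMS, RRM1 and RRM2, which make the deoxynucleotides for DNA. They were chosen by name for this function, and all 10 are among the 24960 genes of the deposited count table and among the 15095 genes that had enough counts to be tested. K562 cells, an established human chronic myeloid leukemia (CML) line that grows in suspension, were sequenced in 6 libraries of total RNA. Of these, 3 came from the control group and 3 from cells given hyperoside, a plant flavonol glycoside, at 2 mM. By their labels the groups differ in this treatment, and both hold the single line K562, so nothing here extends to other CML cells. How long the cells were exposed before extraction is not given in the sources used here, and nothing states that the replicates were separate cultures, so the p-values measure the spread between these libraries, which may be technical.

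Purine synthesis starts from activated ribose, phosphoribosyl pyrophosphate (PRPP), and assembles the ring on it step by step until inosine monophosphate (IMP) is reached, which is then turned into AMP or GMP. Pyrimidine synthesis assembles the ring before the ribose is attached and ends at UMP. Ribonucleotide reductase, a complex of RRM1 and RRM2, converts ribonucleotides to deoxynucleotides, and thymidylate synthase, TYMS, supplies the thymine nucleotide that only DNA needs. Dividing cells depend on these routes, and several antileukemic drugs act on them.

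By RefSeq on GRCh38 the purine genes are spread over 4 chromosomes, with PPAT on the minus strand at chr4:56393362-56435615, PAICS on the plus strand at chr4:56410507-56464578, GART on the minus strand at chr21:33503931-33542893, ATIC on the plus strand at chr2:215312059-215368592 and IMPDH2 on the minus strand at chr3:49024325-49029398. The other 5 are all on the plus strand, CAD at chr2:27217369-27243943, UMPS at chr3:124730452-124749273, TYMS at chr18:657653-673578, RRM1 at chr11:4094685-4138932 and RRM2 at chr2:10122568-10211010.

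Library depth, as total gene counts, ranged from 35613283 to 36754725. Libraries within a group varied beyond counting error, with a chi-square statistic per degree of freedom of 6.56 to 25.2, and the highest values belonged to the pairs that held control replicate 1. Of 9 erythroid genes typical of K562 cells, all were tested, 3 were called lower and 3 higher, and their summed level was 2437 to 3147 normalized counts per 1e+06 counts (CPM) in controls against 1905 to 2246 with hyperoside. CDKN2A, which is deleted in this line, had 0 counts in 5 libraries and 1 in the other. The sample labels name bone as the tissue, but the bone genes BGLAP and ALPL had at most 7 counts and 1 count in any library. The other genes of that bone and stroma list had more, with up to 29 counts for SPP1, 111 for COL1A1 and 138 for COL1A2. Of these, COL1A1 was called lower with hyperoside. The part of these shifts in the results below was not tested.

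PPAT and PAICS lie head to head on chromosome 4 and are read away from each other. In the RefSeq promoter table of build GRCh38.p14, which held 9 of the 10 genes, PPAT starts at position 56435615 on the minus strand and PAICS at 56435752 on the plus strand, with 136 bases between. GENCODE 29 puts the PAICS start at 56435741, and a longer RefSeq span of PAICS runs into the PPAT gene. The stretch between the PPAT start and the GENCODE start of PAICS, chr4:56435616-56435740, is shown because it separates the pair. It is written on the plus strand, with PPAT to its left and PAICS to its right.

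PPAT and PAICS: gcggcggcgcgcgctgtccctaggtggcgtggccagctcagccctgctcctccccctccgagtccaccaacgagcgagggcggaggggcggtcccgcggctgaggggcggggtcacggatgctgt

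Of its 125 bases, 76.0% are G or C, and it holds none of the motifs searched. These were the E-box CACGTG, E2F letters (TTTGGCGC, TTTCGCGC, TTTCCCGC or TTTGCCGC), the CCAAT box, the amino acid response element TGATGNAA and the NRF1 motif, all on both strands. In the 250 bases before the RefSeq start, 1 window per gene, the E-box was found in 2 of the 9 genes, against 6.31% of 34788 promoter windows of the same length. The E2F letters were found in 2 of 9 genes, against 2.78% of windows, and the CCAAT box in 4, namely GART, CAD, RRM1 and RRM2, against 32.0%. Neither the amino acid response element (3.16% of windows) nor the NRF1 motif (5.05%) was found in the 9. The windows compared were not matched for G and C content. The E-box and E2F matches are shown with their surroundings, each on its gene's own strand with the motif in capitals.

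PPAT E-box: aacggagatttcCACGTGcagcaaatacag
ATIC E-box: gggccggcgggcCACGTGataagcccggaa
GART E2F: agcatTTTGGCGCtcccccccggcgctcct
TYMS E2F: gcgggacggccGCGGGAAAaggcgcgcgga

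The PPAT stretch shown lies at chr4:56435780-56435809, the ATIC stretch at chr2:215312001-215312030 and the GART stretch at chr21:33542338-33542367. The TYMS stretch, whose motif is read on the opposite strand, lies at chr18:657603-657632. The PPAT E-box is 182 to 177 bases before the PPAT start and thus beyond the PAICS start. These matches describe letters in a window and do not show that a factor was bound. Of the genes that share a motif, PPAT and ATIC with the E-box were both called lower in the hyperoside group, and of those with E2F letters GART was called lower and TYMS higher.

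Of the 10 genes, hyperoside-treated K562 cells had less mRNA of the 4 on the route to IMP, and of CAD, and more of TYMS. RRM1 and RRM2 did not pass the test. PPAT, GART, PAICS, ATIC and CAD were called lower and TYMS higher at an adjusted p under 0.05, by the quasi-likelihood test of edgeR, adjusted over all tested genes by Benjamini-Hochberg. IMPDH2, UMPS, RRM1 and RRM2 were not called. The calls of ATIC and CAD were the least stable, as they held in 9 and 6 of 13 alternative settings, and the CAD groups overlapped. Of other genes on the route to IMP, PRPS1 and PRPS2 were called lower and PFAS higher, and ADSL was not called. The 6 of 10 genes called compare with 45.3% of all tested genes, the 5 called lower with 23.2% and the 1 called higher with 22.1%. These enzymes are abundant, and among the 7339 tested genes at or above the mean level of UMPS, the least abundant of the 10, 53.4% were called, so the number of calls is close to what such genes gave. Their changes were also modest, with a median absolute log2 fold change of 0.23 against 0.24 in those 7339 genes, and none passed the study's own limit of a 2-fold change, which 10.2% of all tested genes and 2.79% of those 7339 passed. As a median, the log2 fold change was -0.13 in the 10 genes and 0.00 in all tested genes. In the 10 genes it was -0.06 without control replicate 1 and -0.17 without control replicate 2, against 0.01 in all tested genes each time. With library totals as the only scaling it was -0.08 in the 10 genes and 0.05 in all tested genes. With FPKM + 1 and FPKM + 0.1 in place of counts it was -0.08 in the 10 genes, and 0.03 and 0.05 in all tested genes. In bulk RNA a lower level can come from fewer cells that make the transcript or from less of it per cell, and these cannot be told apart.

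**Figure D1:**
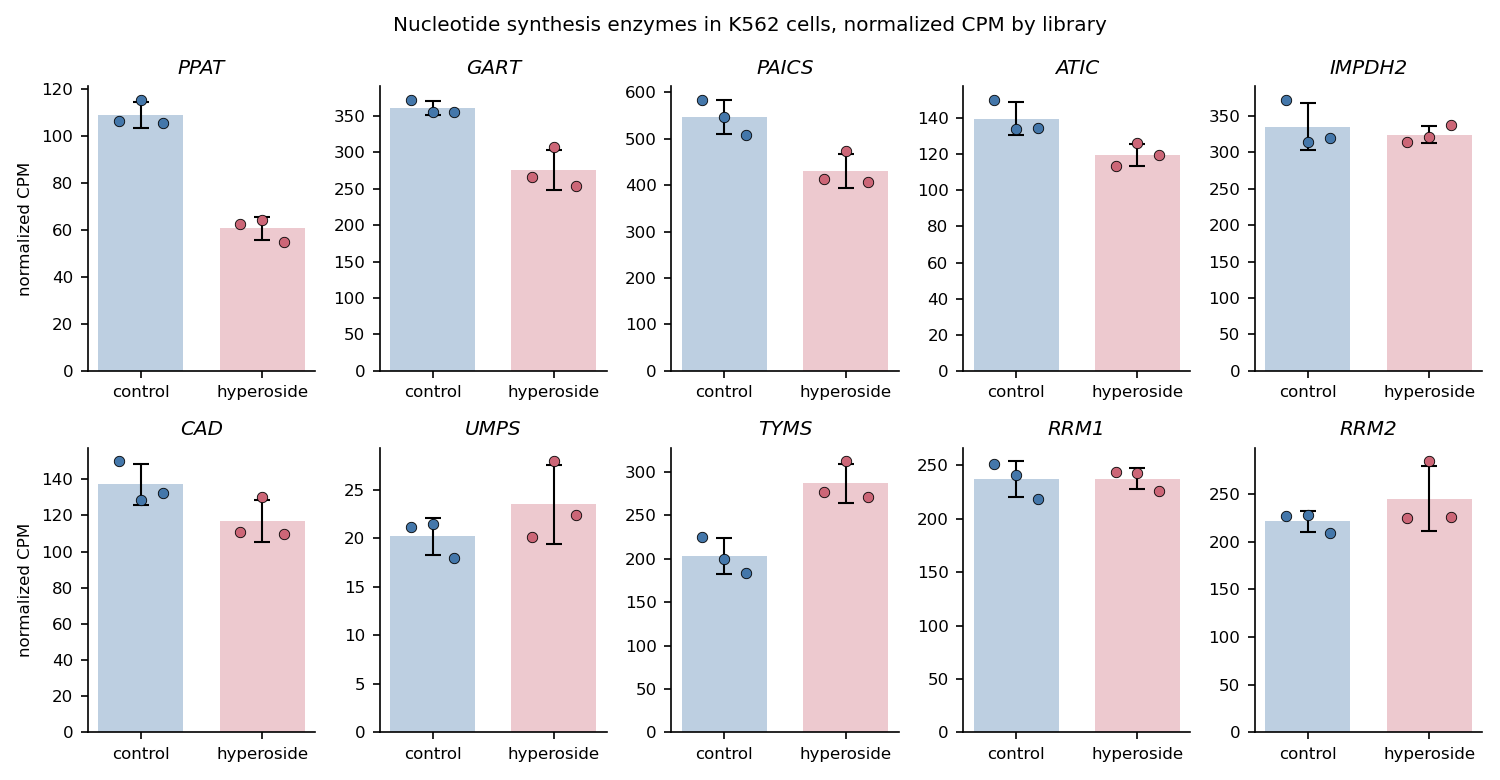
Normalized CPM of the 10 genes in each library. Points are single libraries, bars are means of 3 libraries and error bars are SDs. The control and hyperoside points do not overlap for PPAT, GART, PAICS, ATIC and TYMS.

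PPAT encodes the amidotransferase that commits PRPP to purine synthesis, and it had the lowest fold change of the 10 genes. Its level was 106.5, 115.6 and 105.6 CPM in control replicates 1, 2 and 3, and 62.7, 64.4 and 55.0 CPM in hyperoside replicates 1, 2 and 3. Every hyperoside library lay far below every control library, and the hyperoside mean was 55.6% of that in controls. On the log2 scale the change was -0.85 (standard error 0.08, edgeR adjusted p = 2.43e-07), a rank of 373 by adjusted p among the tested genes. In 6.62% of the tested genes the fold change was lower still. Over 13 alternative settings the log2 fold change of PPAT ranged from -0.89 to -0.77, and it was called in all 13.

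Values are given below in the order of replicates 1, 2 and 3 of each group. GART is a multifunctional enzyme that carries out several of the next steps. It measured 372.5, 356.0 and 355.9 CPM in the controls, against 266.0, 306.8 and 253.8 CPM with hyperoside. The groups did not overlap, and hyperoside replicate 2 was nearest to the control group. Its log2 fold change was -0.39 (standard error 0.08, edgeR adjusted p = 4.09e-04). Of the 7751 annotated exon bases of GART, 275 overlap SON on the opposite strand, and the use of strand in counting is not given in the sources used here. SON had 379.6 ± 22.8 CPM in controls against 425.7 ± 18.2 with hyperoside (SD, n = 3 each), with a log2 fold change of 0.17 (edgeR adjusted p = 0.0616), a direction opposite to that of GART.

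PAICS, which joins carbon dioxide and aspartate to the growing ring, took the most counts of the 10 genes. It had 583.7, 547.1 and 508.8 CPM in the controls, against 413.0, 472.9 and 406.1 CPM with hyperoside. The highest hyperoside library, replicate 2, was still below the lowest control library, replicate 3. The difference on the log2 scale was -0.34 (standard error 0.08, edgeR adjusted p = 0.00129). GART and PAICS were called in all 13 alternative settings.

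ATIC closes the purine ring and yields IMP. Its values were 150.3, 134.1 and 134.8 CPM in the controls, against 113.7, 126.0 and 119.8 CPM with hyperoside. The groups did not overlap, but the gap between them was narrow, and the log2 fold change was -0.22 (standard error 0.08, edgeR adjusted p = 0.0230). Without hyperoside replicate 1 the adjusted p was 0.131 and without hyperoside replicate 3 it was 0.0794, with log2 fold changes of -0.18 and -0.21. No other library, when left out, ended the call.

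The rest of the route to IMP was read from a list of its 8 genes, of which 4 are described above. PRPS1 and PRPS2, which make the PRPP that PPAT uses, were both lower. PRPS1 had 152.9 ± 13.3 CPM in controls against 101.1 ± 3.45 with hyperoside, and PRPS2 had 70.8 ± 2.59 and 49.1 ± 1.38 (SD, n = 3 each). Their log2 fold changes were -0.60 (edgeR adjusted p = 7.33e-06) and -0.53 (edgeR adjusted p = 3.16e-05). PFAS, which acts between the GART steps, went the other way. It measured 36.6, 37.0 and 32.2 CPM in the controls, against 49.1, 60.4 and 44.6 CPM with hyperoside, a log2 fold change of 0.54 (standard error 0.11, edgeR adjusted p = 4.95e-04). ADSL, which serves both the route to IMP and that from IMP to AMP, had a log2 fold change of 0.22 and was not called (edgeR adjusted p = 0.0742), but without control replicate 1 its log2 fold change was 0.36 with an adjusted p of 1.66e-04. Of the 8 genes, 6 were called lower and 1 higher, with a median log2 fold change of -0.37. Without control replicate 1, 2 were called higher. With all libraries 87.5% of the list was called, against 45.3% of all tested genes (23.2% lower and 22.1% higher). The genes for the start of the route, PRPS1, PRPS2 and PPAT, had the lowest fold changes of the list.

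**Figure D2:**
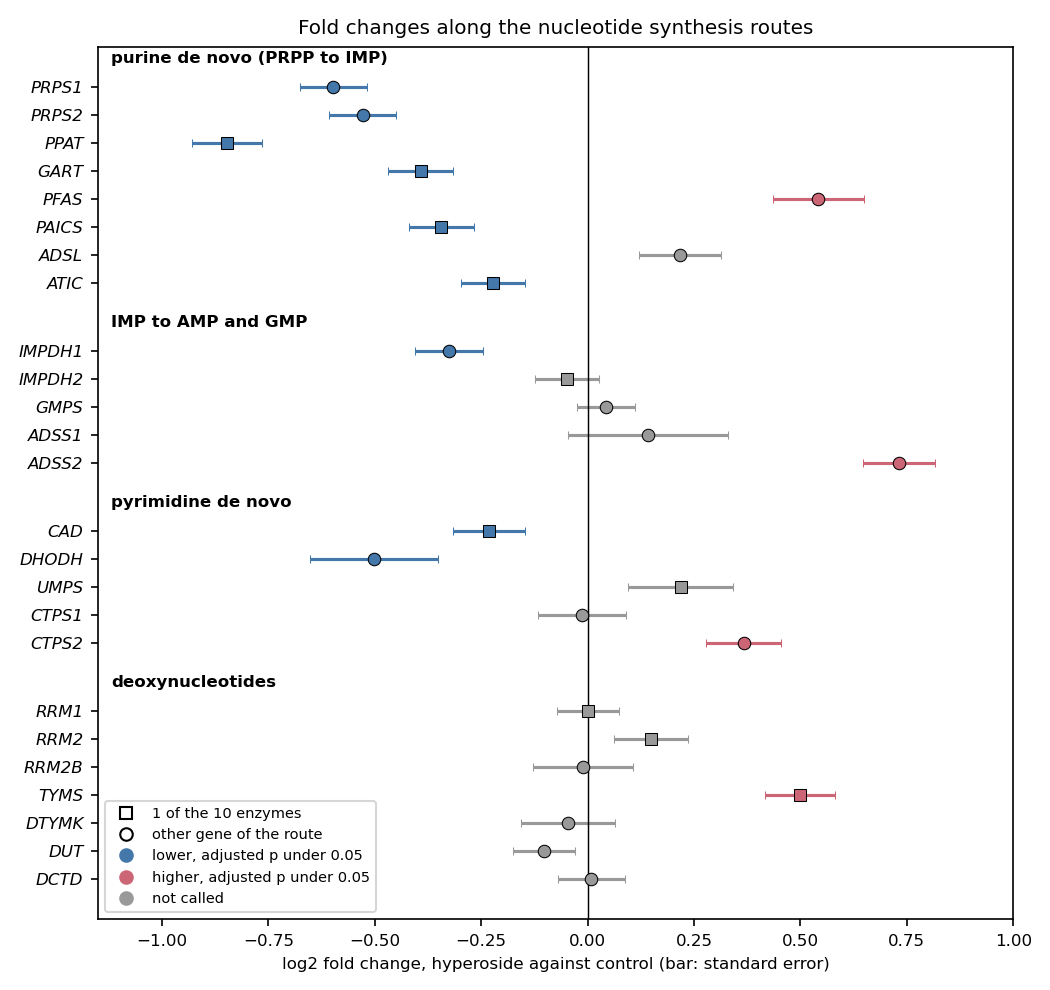
Log2 fold changes (x axis, hyperoside against control) of 25 genes on the 4 nucleotide synthesis routes, with standard errors as bars. Squares mark the 10 enzymes, circles the other genes, and colour marks the call. On the route to IMP 6 of 8 genes lie below zero and are called, and among the deoxynucleotide genes shown TYMS alone is called.

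IMPDH2 encodes the rate-limiting enzyme of the branch from IMP to GMP. Its level was 372.3, 313.8 and 319.5 CPM in the controls, against 314.5, 321.1 and 337.4 CPM with hyperoside. The groups overlapped, but control replicate 1 was the highest of all 6 libraries and lay outside the hyperoside range. In log2 terms the change was -0.05 (standard error 0.08, edgeR adjusted p = 0.636), and its sign turned in 4 of the 13 alternatives. Among these was the fit without control replicate 1, which gave 0.04. The other isoenzyme, IMPDH1, had 82.8 ± 4.63 CPM in controls against 66.1 ± 3.70 with hyperoside (SD, n = 3 each), a log2 change of -0.33 (edgeR adjusted p = 0.00291). GMPS, which completes GMP, had a log2 fold change of 0.04 (edgeR adjusted p = 0.631). On the branch to AMP, ADSS2 rose from 77.6 ± 8.05 to 128.9 ± 6.004 CPM (SD, n = 3 each), or in log2 terms by 0.73 (edgeR adjusted p = 1.66e-06), and its isoenzyme ADSS1, at a mean of 5.32 CPM, had a log2 fold change of 0.14 (edgeR adjusted p = 0.569).

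CAD carries the opening steps of pyrimidine synthesis on a single chain. It had 150.02, 128.8 and 132.5 CPM in the controls, against 110.6, 130.3 and 109.6 CPM with hyperoside. Hyperoside replicate 2 lay above control replicate 2, so the groups overlapped. Its log2 change was -0.23 (standard error 0.08, edgeR adjusted p = 0.0335), a call that was lost in 7 of 13 alternatives. Without control replicate 1 the adjusted p was 0.0727, without hyperoside replicate 1 it was 0.157 and without hyperoside replicate 3 it was 0.177, with log2 fold changes of -0.16 to -0.19.

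UMPS, which attaches the ribose and yields UMP, was the scarcest of the 10 genes. Its level was 21.1, 21.4 and 17.97 CPM in the controls, against 20.1, 27.9 and 22.4 CPM with hyperoside. The groups overlapped, and hyperoside replicate 2 stood above the other 5 libraries. Its log2 fold change was 0.22 (standard error 0.12, edgeR adjusted p = 0.158), and it was 0.07 without hyperoside replicate 2 and 0.14 without control replicate 3. Between CAD and UMPS acts DHODH, a mitochondrial enzyme at 14.0 ± 1.96 CPM in controls against 9.91 ± 1.87 with hyperoside (SD, n = 3 each), with a log2 fold change of -0.50 (edgeR adjusted p = 0.0110). Beyond UMP, CTPS2 rose with a log2 fold change of 0.37 (edgeR adjusted p = 0.00244), and CTPS1 had -0.01 (edgeR adjusted p = 0.926). Of the 5 pyrimidine genes 2 were called lower and 1 higher, with a median of -0.01. That is 60% of the list, against 45.3% of all tested genes called. No gene of the list was called lower without hyperoside replicate 1 or without hyperoside replicate 3, and 1 was without control replicate 1, compared with 2 when all libraries were kept.

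TYMS was the only one of the 10 genes called higher. It had 224.9, 200.04 and 183.8 CPM in the controls, against 277.2, 312.2 and 270.3 CPM with hyperoside. Every hyperoside library exceeded every control library, and the hyperoside mean was 141.2% of that in controls. On the log2 scale the change was 0.50 (standard error 0.08, edgeR adjusted p = 9.01e-05), and it was called in all 13 alternatives, with log2 fold changes of 0.43 to 0.58. The exons of TYMS share 967 of 2470 annotated bases with ENOSF1 on the opposite strand. ENOSF1 was called higher as well, from 41.8 ± 1.84 to 50.2 ± 1.55 CPM (SD, n = 3 each), with a log2 change of 0.26 (edgeR adjusted p = 0.0151). ENOSF1 was not called without control replicate 2 (adjusted p = 0.0794) or without hyperoside replicate 1 (adjusted p = 0.0753). How many reads of the shared bases were counted to either gene was not tested. TYMSOS, another opposite gene that shares 183 bases, was at 7.25 CPM in controls against 7.33 with hyperoside (log2 fold change 0.02, edgeR adjusted p = 0.949).

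RRM1 encodes the large, catalytic subunit of ribonucleotide reductase. Its values were 251.8, 241.4 and 219.0 CPM in the controls, against 244.2, 242.8 and 226.0 CPM with hyperoside. The ranges lay almost on top of each other, and the log2 fold change was 0.00 (standard error 0.07, edgeR adjusted p = 0.987). RRM2 encodes the small subunit, whose protein is tied to S phase. It had 226.7, 228.4 and 208.7 CPM in the controls, against 225.2, 284.6 and 226.3 CPM with hyperoside. Only hyperoside replicate 2 stood above the control range. RRM2 had a log2 change of 0.15 (standard error 0.09, edgeR adjusted p = 0.171), and without hyperoside replicate 2 it was 0.03. In GENCODE 29, 1077 of the 5323 annotated exon bases of RRM2 are shared with AC007240.1 on the same strand, and pseudogenes named after PPAT, PAICS, TYMS and RRM2 are annotated but have no row in the count table. Their part in the counts was not tested.

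Of the 8 deoxynucleotide genes TYMS was called higher and none was called lower, so 12.5% were called, against 45.3% of all tested genes. The log2 fold changes ranged from -0.10 to 0.01 in DUT, DTYMK, RRM2B and DCTD. RRM2B, the small subunit used outside S phase, was at -0.01 on that scale (standard error 0.12, edgeR adjusted p = 0.950). For comparison, of 22 genes of DNA replication, 7 were called lower and 3 higher, with a median of -0.09. The share called was 45.5%, close to the 45.3% of all tested genes. Their summed level was 1079 to 1196 FPKM (counts scaled to gene length and library total) in controls against 1050 to 1155 FPKM with hyperoside. Without hyperoside replicate 1, 4 of the 22 were called lower, and without control replicate 1, 5 were called higher. GINS2 (-0.62) and RFC4 (-0.50) were lower and GINS3 (0.65) and POLE (0.37) higher on the log2 scale.

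Levels can be compared between genes only per length, for which the deposited FPKM were used. In the control group the order was IMPDH2 at 158.5 ± 11.6 FPKM, TYMS at 110.7 ± 8.56, GART at 80.2 ± 0.64, PAICS at 69.9 ± 3.16, RRM1 at 65.1 ± 3.24, RRM2 at 63.3 ± 2.37, ATIC at 49.99 ± 2.14, PPAT at 29.2 ± 1.71, CAD at 17.8 ± 1.09 and UMPS at 2.98 ± 0.24 (SD, n = 3 libraries). The ranges of the 3 control libraries overlapped between PAICS and RRM1 and between RRM1 and RRM2, and between no other neighbours. In the hyperoside group TYMS, at 162.0 ± 12.98 FPKM, and IMPDH2, at 158.9 ± 4.55 FPKM, had overlapping ranges, and by their means RRM2 and RRM1 ranked above GART and PAICS. The gene lengths behind these values, worked back from counts and FPKM, were for example 7673 bases for PAICS and 6652 for UMPS. They were 4425 for GART and 3434 for RRM2, while GENCODE 29 annotates 7751 and 5323 exon bases for these. How far the order depends on the lengths was not tested.

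Ratios between 2 genes of the same library do not depend on how the libraries were scaled to each other, and 5 were compared, of which 4 are given. The ratio of PPAT to PAICS FPKM was 0.38, 0.44 and 0.43 in the controls, against 0.32, 0.28 and 0.28 with hyperoside. All hyperoside ratios were lower, a difference of -0.51 on the log2 scale between these head-to-head neighbours. The ratio of IMPDH1 to IMPDH2 fell outside the control range as well, from 0.18 ± 0.01 to 0.15 ± 0.01 (SD, n = 3 each), a log2 difference of -0.28. For both, the two-sided exact permutation test gave p = 0.1, which is the smallest p that 3 libraries against 3 can give, and 0.167 after Benjamini-Hochberg adjustment over the 5 ratios. The subunit ratio of RRM2 to RRM1 was 0.97 ± 0.03 in controls against 1.08 ± 0.13 with hyperoside (SD, n = 3 each, exact permutation p = 0.3, adjusted 0.375). That of RRM2B to RRM2 was 0.13 ± 0.03 and 0.12 ± 0.02 (SD, n = 3 each, exact permutation p = 0.6, adjusted 0.6), and in both cases the groups overlapped.

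**Figure D3:**
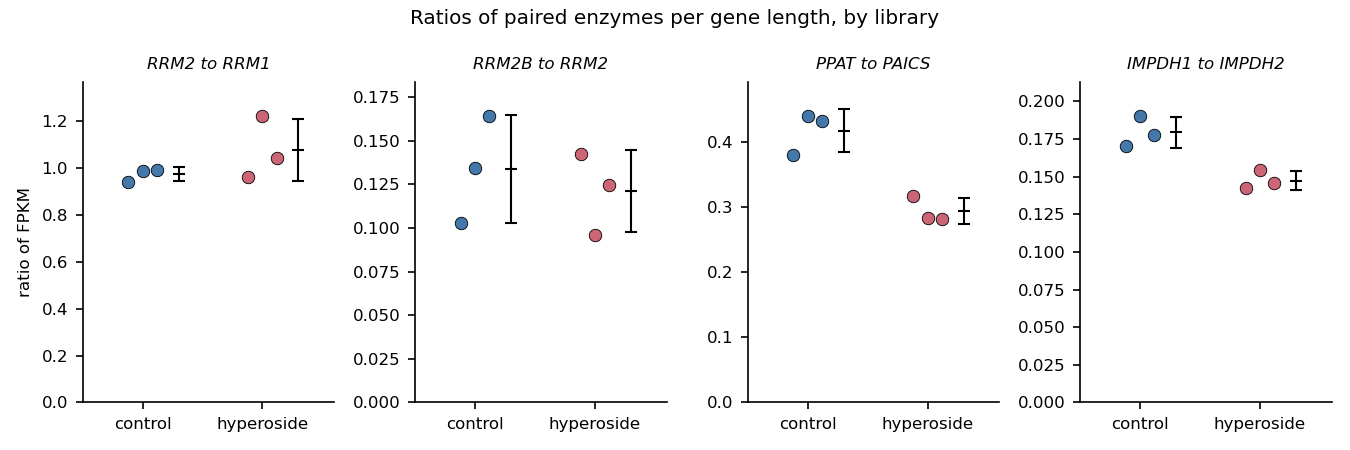
Ratios of FPKM (y axis) for 4 pairs of genes in each library (points), with means and SDs of 3 libraries beside them. The ratios of PPAT to PAICS and IMPDH1 to IMPDH2 are lower in all 3 hyperoside libraries, while both reductase ratios overlap.

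Within each group the 10 genes tended to be high or low in the same library. In control replicate 1, 9 of the 10 lay above their control mean, and in control replicate 3 none did. In hyperoside replicate 2, 9 of the 10 lay above their hyperoside mean, with a median deviation of 0.13 on the log2 scale, against 2 of 10 in each of the other hyperoside replicates. Over all tested genes the median deviation of each library was between -0.01 and 0.02. The scaling and centring keep that median small, so it is no background for these counts. How many of all tested genes lay above their group mean in each library was not worked out. Without hyperoside replicate 2 the log2 fold changes of GART, PAICS and CAD were -0.48, -0.42 and -0.32. Of the 10 genes, 5 did not overlap between the groups, 4 of them lower and 1 higher, compared with 54.4% of all tested genes.

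**Figure D4:**
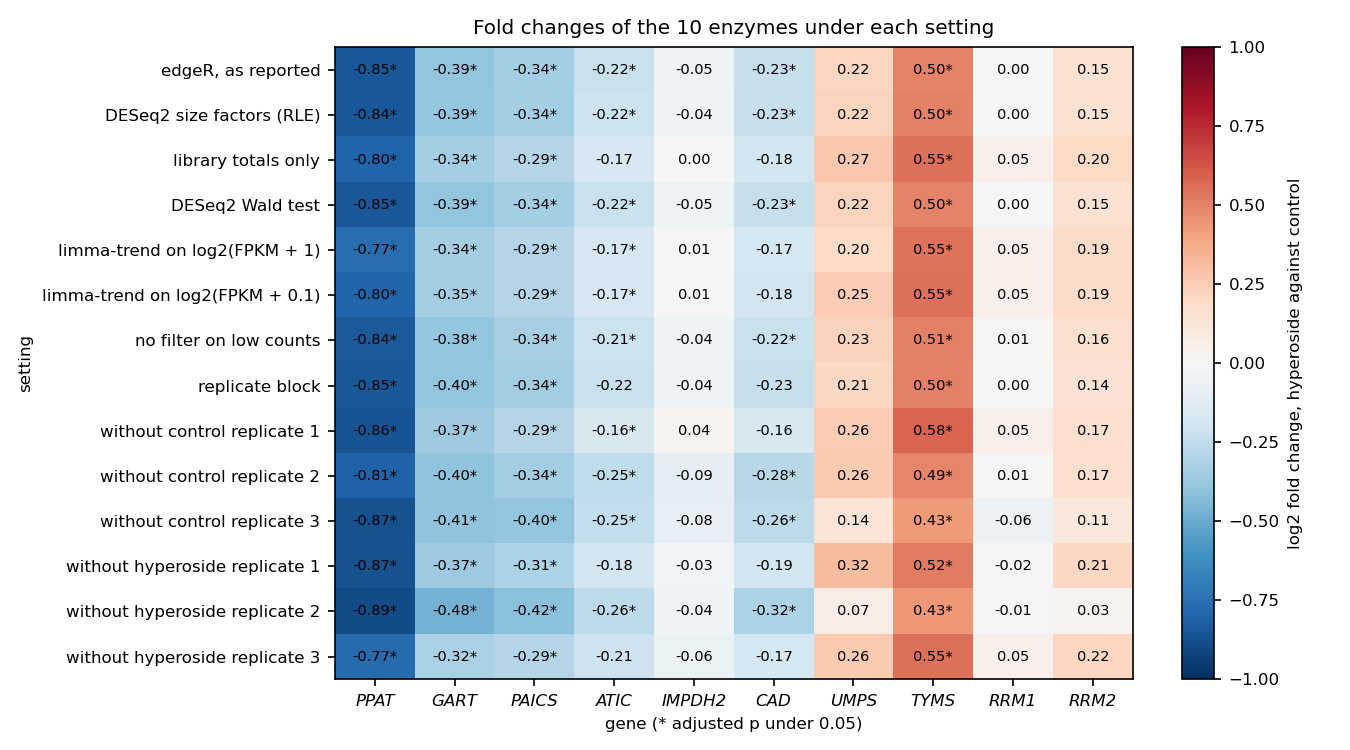
Log2 fold changes of the 10 genes (columns) under the test as reported and 13 alternatives (rows), with colour from lower (blue) to higher (red) and an asterisk where the adjusted p was under 0.05. PPAT, GART, PAICS and TYMS carry an asterisk in every row, ATIC in 10 of 14 and CAD in 7 of 14.

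The surrounding metabolism was read from lists of the same kind. Folate one-carbon enzymes, which handle the folate-bound groups that GART, ATIC and TYMS use, had 4 of 8 genes called lower and 2 higher. That is 75% of the list, against 45.3% of all tested genes called. ALDH1L2 and MTHFD2, both mitochondrial, had log2 changes of -1.57 and -0.83, with edgeR adjusted p of 3.16e-09 and 1.56e-07, while MTHFD1 (0.23) was higher. MTHFD1 was not called without control replicate 2, control replicate 3, hyperoside replicate 1 or hyperoside replicate 2, which each left 1 gene called higher. Among regulators, MYC had a log2 fold change of 0.02 (edgeR adjusted p = 0.851) and E2F1 of 0.13 (edgeR adjusted p = 0.253), which without control replicate 1 was 0.21 and was called (edgeR adjusted p = 0.0460). ATF4, a factor of the amino acid response, fell from 546.2 ± 55.8 to 330.8 ± 21.6 CPM (SD, n = 3 each), with a log2 change of -0.72 (edgeR adjusted p = 1.02e-06). Of the 11 regulators 2 were called lower, ATF4 and E2F7 (-0.39), and 2 higher, FOXM1 (0.45) and E2F3 (0.27). The share called was 36.4%, against 45.3% of all tested genes. Without control replicate 1, 4 were called higher, and without control replicate 2 or hyperoside replicate 2, 1 was.

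The tested gene whose pattern over the 6 libraries was nearest to each of the 10 was found among 9300 other genes with a mean of at least 10 CPM. The measure was the root mean square difference of log2 CPM after centring each gene on its own mean, given as a description over 6 libraries. GART was matched most closely by DCAF13, with a difference of 0.01 and a log2 fold change of -0.38. PPAT was matched by ZNF512 (difference 0.05, log2 fold change -0.82), PAICS by SNHG12 (0.03, -0.31), ATIC by TPD52L2 (0.02, -0.21) and CAD by ENTR1 (0.02, -0.27). TYMS was matched by KEL, the Kell blood group gene, with a difference of 0.04 and a log2 fold change of 0.49. The nearest genes to IMPDH2, UMPS, RRM1 and RRM2 were GRHPR, CISD3, ULK3 and NDUFAF1, none of which was called. None of these nearest genes was itself on a nucleotide list, which says nothing of the genes ranked next.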

How the data were processed

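Total RNA of K562 cells was extracted with Trizol and sequenced in 6 libraries. The authors deposited raw counts per gene, and FPKM made from the same counts, gene length and library total. Gene lengths were worked back from the 2 tables, and of the other deposited columns only gene identifiers were used. The submitters' processing notes name fastp, HISAT2 and HTSeq on hg38. Annotation, strand setting and versions are not given in the sources used here. Counts were analysed with edgeR 4.0.16 in R 4.3.3. Genes were kept by filterByExpr (minimum count 10, minimum total 15), scaled by TMM and tested by quasi-likelihood with the group as only term. The standard error is the log2 fold change over the square root of F. Alternatives used DESeq2 1.42.0 and limma 3.58.1, the latter on log2(FPKM + 1) and log2(FPKM + 0.1). Ratios were compared by two-sided exact permutation tests. The steps were tested on simulated counts. The genes, lists and motifs were chosen with earlier results of these data known. Named genes were the 10 enzymes, all genes of the synthesis lists, MYC, E2F1, genes with overlapping exons, the nearest gene in pattern, and up to 2 called genes per direction and other list. Overlaps came from GENCODE 29. Values of some genes on the lists are not reported here.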

Additional observations from a re-analysis of the deposited data

How the results depend on the processing

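PPAT, GART, PAICS and TYMS kept their direction and their call under all 13 alternatives. ATIC was called in 9 and CAD in 6 of 13, and both kept their direction. Of the 10 genes, 3 instead of 5 were called lower with library totals as the only scaling, where ATIC and CAD had adjusted p of 0.0573 and 0.0866, and 3 with the replicate number as a block, where they had 0.0609 and 0.0616. Leaving out each library in turn gave 3 to 5 called lower and 1 called higher, and the lower count was 3 without hyperoside replicate 1 and without hyperoside replicate 3. Fewer genes were called lower over all tested genes in these settings too, against 3508 in the main fit. There were 2958 with library totals and 3103 with the block. Without hyperoside replicate 1 there were 2858, and without hyperoside replicate 3 there were 2891. With a fold change above 2 required as well, 0 of the 10 genes were called lower and 0 higher. Of the 39 other nucleotide genes tested 0 were then lower and 0 higher, instead of 13 and 9. Without the fold limit 56.4% of these 39 were called, against 45.3% of all tested genes (23.2% lower and 22.1% higher). Leaving out each library gave 11 to 16 lower and 7 to 9 higher among the 39. The replicate numbers did not pair the libraries, as deviations of same-numbered libraries correlated at -0.08 to -0.03 and no control library correlated best with its own number. The block changed no other call among the 10 genes. The same was done for 92 other tested genes, from all the lists, the nearest genes in pattern, ENOSF1 and SON. Of these, 68 kept their call in all alternatives. In 1196 comparisons, 51 calls were lost, 20 were gained and 0 reversed. The cause of these dependences was not tested.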

Other observations

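Salvage enzymes, which recover bases and nucleosides instead of building them, had 13 of 14 genes tested, of which 4 were called lower and 4 higher. That is 61.5% of those tested, against 45.3% of all tested genes. PNP, which splits purine nucleosides, fell from 153.9 ± 17.7 to 98.3 ± 7.95 CPM (SD, n = 3 each), and DGUOK, the mitochondrial deoxyguanosine kinase, from 81.3 ± 4.83 to 55.1 ± 4.02 CPM, with log2 fold changes of -0.65 and -0.56 (edgeR adjusted p = 1.17e-05 and 3.07e-05). TK2, the mitochondrial thymidine kinase, rose from 11.7 ± 1.83 to 21.3 ± 2.56 CPM, and UCK1, a uridine kinase, from 18.1 ± 1.95 to 24.6 ± 2.07 CPM, with log2 fold changes of 0.87 and 0.44 (edgeR adjusted p = 3.44e-05 and 0.00340). Among nucleotide kinases, GUK1, which phosphorylates GMP, fell by 0.61 on the log2 scale.

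Of 9 genes of nucleotide breakdown 6 were tested, with 3 called lower and 2 higher, and 1 higher without hyperoside replicate 1. With all libraries 83.3% of those tested were called, against 45.3% of all tested genes. AMPD2, which deaminates AMP to IMP, had a log2 fold change of -0.70 and its relative AMPD3 one of 0.39 (edgeR adjusted p = 1.33e-06 and 0.00751), while the nucleotidases NT5C3A and NT5C2 had -0.53 and 0.42 (edgeR adjusted p = 1.44e-04 and 7.90e-04). Summed over the 10 synthesis enzymes, FPKM was 647.7 ± 26.7 in controls against 661.9 ± 39.2 with hyperoside (SD, n = 3 each), and the 2 groups overlapped.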
